A study of Homo sapiens with 6 samples.

Results

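The genes described here are 6 ligands of the epidermal growth factor (EGF) family, EREG, EPGN, AREG, HBEGF, TGFA and BTC, and 3 receptors of the ERBB family, EGFR, ERBB2 and ERBB3. They were taken by name from the gene table, where their gene IDs are 2069 (EREG), 255324 (EPGN), 374 (AREG), 1839 (HBEGF), 7039 (TGFA), 685 (BTC), 1956 (EGFR), 2064 (ERBB2) and 2065 (ERBB3). They are 9 of its 21372 features, and were picked with earlier results of these same libraries in view. Their levels, differences and calls are therefore given as a description, without p-values. The libraries come from HLE, a human hepatocellular carcinoma line, infected with lentivirus at a multiplicity of 10 and kept for 7 days in puromycin. The kd.1 and kd.2 lines each carry a different short hairpin RNA (shRNA) against the coding region of ZNF281, a zinc-finger transcription factor, and the control line carries a control shRNA. Each of the 3 lines gave 2 libraries of total RNA, 6 in all. The labels do not say whether the duplicates are separate cultures, so SDs, SEs and p-values reflect how far these duplicates lie apart, possibly for technical reasons, and each shRNA is represented by 1 line.

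EGF family ligands are made as membrane-anchored precursors whose outer part is cut off by proteases of the ADAM class. EGF, TGFA, AREG and EPGN bind EGFR, HBEGF, EREG and BTC bind EGFR and ERBB4, and neuregulins bind ERBB3 and ERBB4. ERBB2 has no known ligand of its own and pairs with the other receptors, and ERBB3 signals through its partners because its own kinase is weak. Bound receptors feed the RAS-ERK and PI3K-AKT pathways, and in liver EGFR ligands are known for their part in regeneration and in tumour growth.

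The feature that makes the 6 ligands a family is a stretch with 6 cysteines, which pair to form the EGF fold. A search of the coding sequences of GENCODE 29 (GRCh38, the coding transcript with the longest coding sequence) found the stretch 1 time in each ligand, always 36 codons long. The coding bases are shown so that the members can be compared; capitals mark the 6 cysteine codons, and the first and last codon are counted from the start codon. The stretch runs from codon 68 to 103 in EREG, 60 to 95 in EPGN, 146 to 181 in AREG, 108 to 143 in HBEGF, 53 to 88 in TGFA and 69 to 104 in BTC.
EREG: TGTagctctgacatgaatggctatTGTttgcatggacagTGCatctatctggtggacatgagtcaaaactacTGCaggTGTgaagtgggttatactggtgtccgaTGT
EPGN: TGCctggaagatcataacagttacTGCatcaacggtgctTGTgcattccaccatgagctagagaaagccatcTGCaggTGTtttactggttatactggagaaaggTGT
AREG: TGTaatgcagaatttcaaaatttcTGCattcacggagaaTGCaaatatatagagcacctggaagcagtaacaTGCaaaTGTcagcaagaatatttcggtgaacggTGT
HBEGF: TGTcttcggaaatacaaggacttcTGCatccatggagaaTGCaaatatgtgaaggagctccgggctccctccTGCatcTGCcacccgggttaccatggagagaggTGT
TGFA: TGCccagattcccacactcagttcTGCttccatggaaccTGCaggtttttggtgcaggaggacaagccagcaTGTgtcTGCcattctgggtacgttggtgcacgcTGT
BTC: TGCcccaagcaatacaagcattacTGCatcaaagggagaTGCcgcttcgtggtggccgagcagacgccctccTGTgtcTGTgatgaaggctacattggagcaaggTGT

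Translated, these stretches shared between 30.6% of their residues (AREG and BTC) and 52.8% (AREG and HBEGF, and TGFA and BTC), and EREG and EPGN shared 44.4%. Such distances matter for counting, because reads from near-identical genes cannot be assigned. Of all stretches of 50 bases along each member's transcript, 0 occurred in a transcript of another gene for 8 members, and 7 of 4570 (0.15%) did for EREG. The read length is not given in the sources used here.

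Values are taken as FPKM (fragments normalised for the length of the transcript and the size of the library), a unit inferred from the numbers since no label states it, so levels of different genes can be set side by side. The targeted transcript checks the labels: ZNF281 stood at 4.35 and 4.71 FPKM in kd.1, 4.37 and 4.47 in kd.2, and 9.52 and 8.43 in the control. The log2 difference from control was -0.97 ± 0.09 (SE) in kd.1 and -1.0 ± 0.09 in kd.2 (adjusted p from limma 0.000249 for kd.1 and 0.000241 for kd.2). Library sums lay between 512672.6 and 575886.9 FPKM, and with no read counts at hand the sequencing depth is not known. Duplicates differed more in the control (SD of their log2 difference 0.245 over the 10851 genes tested) than in kd.1 (0.147) or kd.2 (0.137). Of 7 hepatocyte markers 4 were in the table, and TTR and APOA1 stayed at or below 0.05 FPKM in all libraries and SERPINA1 between 1.88 and 3.17. The fourth, HNF4A, stood at 1.15 and 1.2 FPKM in kd.1, 0.45 and 0.51 in kd.2, and 0.55 and 0.60 in the control. The 5 simple-epithelial markers summed to 1190 and 1306 FPKM in the kd.1 libraries, 2253 and 2319 in those of kd.2, and 2548 and 2615 in those of the control. Among them the keratin KRT8 stood at 592.86 and 645.04 FPKM in kd.1, 1154.65 and 1180.84 in kd.2, and 1309.33 and 1315.07 in the control. KRT8 and KRT18 made up most of that sum, while KRT19 stood at 98.09 and 113.99 in kd.1, 90.58 and 99.11 in kd.2, and 115.35 and 121.17 in the control, and EPCAM and CDH1 were at most 0.07 FPKM. The 6 fibroblast markers, led by LUM and DCN, summed to 282.2 and 302.4 FPKM in the kd.1 libraries, 231.9 and 233.1 in those of kd.2, and 270.1 and 284.8 in those of the control, with COL1A2 at most 0.02. DCN stood at 98.53 and 86.03 FPKM in kd.1, 38.61 and 37.89 in kd.2, and 72.54 and 73.29 in the control. The keratinocyte sum lay between 20.81 and 30.48 FPKM over all libraries and was nearly all KRT10. Summed leukocyte markers were at most 0.63 FPKM and summed endothelial markers at most 0.68.

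Among the 9 members, 8 stood at 1 FPKM or more in all 6 libraries and passed the filter, which asked for that level in at least 2. BTC did not pass it. In the kd.1 line EPGN and AREG were called higher than control and ERBB2 lower, 2 up and 1 down of 8, against 15.8% of all 10851 tested genes called up and 13.4% called down. In the kd.2 line EREG, EPGN and AREG were called higher and 0 members lower, against 15.7% up and 22.2% down of all tested genes. Between the lines, kd.2 against kd.1, EREG and EPGN were called higher and AREG lower, against 11.9% up and 20.3% down of all tested genes. Since the members were picked from these data, nothing is read from these counts. In bulk RNA a higher level per cell and a larger share of cells with the transcript cannot be told apart. Both knockdown comparisons share the control libraries. Called means a Benjamini-Hochberg adjusted p under 0.05 over all tested genes in limma. With 1 library left in a group, the fit takes its SE from the duplicates of the other lines. Calls from such a fit therefore leave out the spread of that group. Leaving out kd.1 replicate 1 left 1 call in kd.1 and leaving out control replicate 1 gave 5. Leaving out control replicate 1 also gave 5 calls in kd.2, and leaving out either control replicate gave 5 between the lines.

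**Figure D1:**
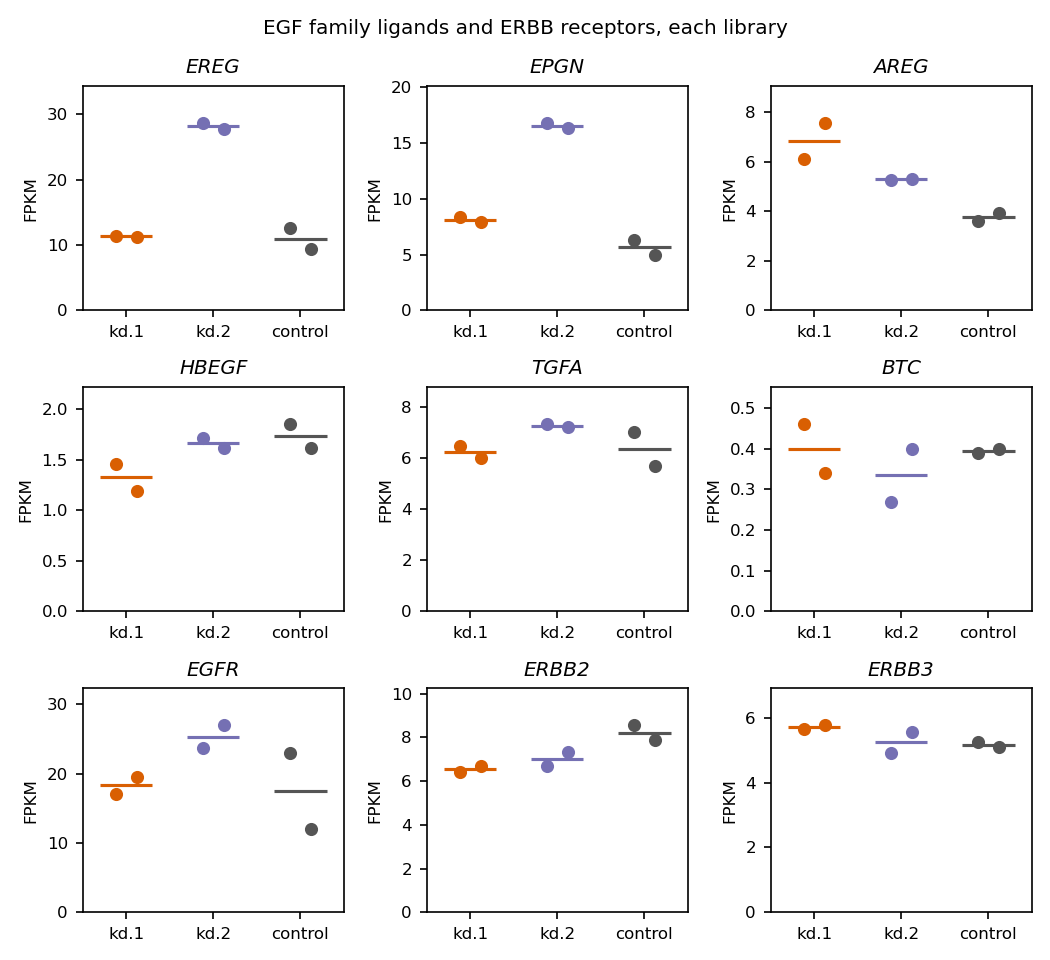
FPKM of each of the 9 members in each library (points; vertical axis, each panel from 0) by line (horizontal axis), with the mean of the 2 libraries as a line. EREG and EPGN are highest in kd.2, AREG is lowest in the control, and the EGFR controls lie apart at 22.92 and 12.05 FPKM.

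EREG encodes epiregulin, a ligand of EGFR and ERBB4. It stood at 11.35 and 11.27 FPKM in kd.1, 28.57 and 27.69 in kd.2, and 12.53 and 9.44 in the control. Both kd.2 libraries lay far above the other 4, and the kd.1 libraries lay between the controls. The log2 difference from control, on the log2(FPKM + 0.1) scale used for all differences, was 1.36 ± 0.12 (SE) in kd.2, a fold of 2.57, and 0.06 ± 0.12 in kd.1. EREG was 2.47-fold higher in kd.2 than in kd.1 (log2 difference 1.31 ± 0.12). In kd.1 the sign hung on the control library used: the difference was 0.26 without control replicate 1, where it was called, and -0.15 without control replicate 2. In kd.2 those values were 1.56 and 1.16, called in both.

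EPGN encodes epigen, an EGFR ligand of low affinity. Its level was 8.32 and 7.94 FPKM in kd.1, 16.74 and 16.36 in kd.2, and 6.30 and 5.00 in the control. The 3 groups did not overlap, with kd.2 on top and the control at the bottom. EPGN rose 2.91-fold in kd.2 (log2 difference 1.54 ± 0.11) and 1.44-fold in kd.1 (0.53 ± 0.11). The kd.1 call was lost without kd.1 replicate 1 (log2 difference 0.49). The ratio of EREG to EPGN was 1.36 and 1.42 in kd.1, 1.71 and 1.69 in kd.2, and 1.99 and 1.89 in the control, so the controls held the most EREG per EPGN.

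AREG encodes amphiregulin, an EGFR ligand that binds heparin. AREG followed another order, with 6.09 and 7.54 FPKM in kd.1, 5.27 and 5.31 in kd.2, and 3.62 and 3.92 in the control. All 4 knockdown libraries lay above both controls and the kd.1 libraries above those of kd.2. AREG rose 1.78-fold in kd.1 (log2 difference 0.83 ± 0.11) and 1.39-fold in kd.2 (0.48 ± 0.11). The kd.2 call was lost without kd.2 replicate 1 (0.48) or replicate 2 (0.47). Between the lines, kd.2 was lower than kd.1 by a log2 difference of -0.35 ± 0.11. That call was lost without kd.1 replicate 2 (-0.20), kd.2 replicate 1 (-0.35) or kd.2 replicate 2 (-0.36). It was also lost with no filter (-0.35), without trend and robust moderation (-0.35), and with columns scaled to a common FPKM sum (-0.33) or median (-0.30).

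The remaining ligands were not called in any comparison. HBEGF, which encodes the heparin-binding ligand, stood at 1.46 and 1.19 FPKM in kd.1, 1.72 and 1.62 in kd.2, and 1.85 and 1.62 in the control. The kd.1 libraries lay below the other 4, with a log2 difference of -0.37 ± 0.14 from control. TGFA, which encodes transforming growth factor alpha, stood at 6.46 and 6.01 FPKM in kd.1, 7.31 and 7.20 in kd.2, and 7.03 and 5.69 in the control. The kd.1 libraries lay between the controls and both kd.2 libraries above them (log2 difference 0.19 ± 0.11 in kd.2, -0.02 ± 0.11 in kd.1). Without control replicate 1 the kd.2 difference of TGFA was 0.35. Between the lines it was 0.22 ± 0.11 and was called when either control library was left out. BTC, betacellulin, ranged between 0.27 and 0.46 FPKM over the 6 libraries with all groups overlapping.

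**Figure D2:**
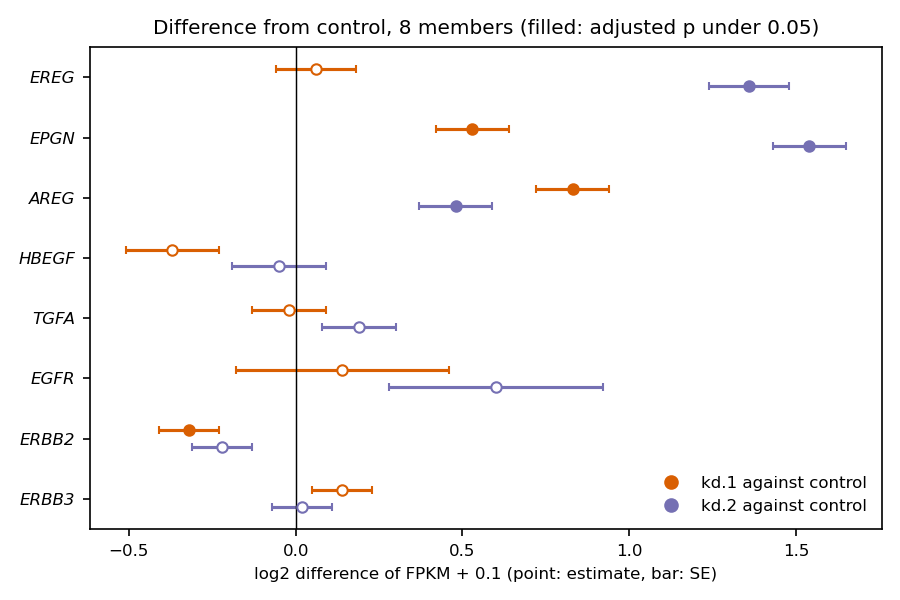
Log2 difference from control (horizontal axis, log2 of FPKM + 0.1, with SE) of the 8 members that passed the filter, for kd.1 and kd.2; filled points were called. EREG and EPGN lie at 1.36 and 1.54 in kd.2, and the EGFR bars are the widest, with an SE of 0.32.

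EGFR, the receptor shared by all 6 ligands, had the widest gap between control duplicates among the 8 members tested. It stood at 17.09 and 19.59 FPKM in kd.1, 23.74 and 26.97 in kd.2, and 22.92 and 12.05 in the control. Both kd.2 libraries lay above all others, and the kd.1 libraries lay between the controls. The gap between the control duplicates, 0.92 on the log2 scale, was larger than that of 99.4% of the tested genes. EGFR was not called: the log2 difference from control was 0.60 ± 0.32 in kd.2 (95% interval -0.24 to 1.45) and 0.14 ± 0.32 in kd.1 (-0.71 to 0.98). The control library used decided the value. Without control replicate 1 the differences were 1.06 in kd.2 and 0.60 in kd.1, and without control replicate 2 they were 0.14 and -0.32. Between the lines the difference was 0.47 ± 0.32, which takes its SE from a spread that includes the controls. It was called when either control library was left out.

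The same 2 control libraries differed in one direction for most members. Control replicate 2 was lower than replicate 1 for 7 of the 9 members and higher for AREG and BTC. Over all tested genes 52.9% were lower in replicate 2. The duplicate gap in the control was larger than that of 94.3% of tested genes for EREG, 88.3% for EPGN and 85.0% for TGFA. Whether this library difference plays a part in the members' differences was not tested beyond leaving out each library.

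ERBB2, the partner receptor, stood at 6.41 and 6.70 FPKM in kd.1, 6.69 and 7.34 in kd.2, and 8.55 and 7.86 in the control. All 4 knockdown libraries lay below both controls. ERBB2 fell in kd.1 by a log2 difference of -0.32 ± 0.09, and it stood at -0.22 ± 0.09 in kd.2, which was not called. The kd.1 call was lost without kd.1 replicate 1 (-0.29), kd.1 replicate 2 (-0.35), or either kd.2 library (-0.32 in both cases), with all columns scaled to a common FPKM sum (-0.24), with no filter, and with only the 2 groups in the fit (-0.32 in both). Without control replicate 2 the kd.2 difference was -0.28. ERBB3, the neuregulin receptor, was not called in any comparison, at 5.65 and 5.76 FPKM in kd.1, 4.92 and 5.55 in kd.2, and 5.25 and 5.08 in the control. Its log2 difference from control was 0.14 ± 0.09 in kd.1 and 0.02 ± 0.09 in kd.2.

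Set side by side, the members kept EGFR and EREG at the top and HBEGF and BTC at the bottom in each line. EREG stood above EGFR in kd.2 (28.1 ± 0.6 and 25.4 ± 2.3 FPKM, SD, n = 2) and below it in kd.1 (11.3 ± 0.06 and 18.3 ± 1.8). In the control the ranges of EREG and EGFR overlapped across libraries (10.98 ± 2.2 and 17.5 ± 7.7), but EREG was below EGFR within each library. EPGN followed these 2 directly in kd.1 and kd.2. In the control EPGN stood below ERBB2, and its range overlapped that of TGFA above it and ERBB3 below it. Within each control library EPGN was below TGFA. AREG overlapped ERBB2 in kd.1 and ERBB3 in kd.2, and TGFA overlapped ERBB2 in both knockdown lines. In the control libraries EGFR stood above 65.8% and 48.6% of the tested genes and EREG above 48.8% and 41.9%.

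The 6 ligand genes summed to 34.2 ± 0.1 FPKM for kd.1, 59.2 ± 0.9 for kd.2 and 28.9 ± 4.0 for the control (SD, n = 2). The kd.2 sum was thus 2.05 times and the kd.1 sum 1.18 times that of the control. EREG made up 33.1% ± 0.3 of the sum for kd.1, 47.5% ± 0.3 for kd.2 and 37.9% ± 2.3 for the control. EPGN made up 23.8% ± 0.9 for kd.1, 27.9% ± 0.02 for kd.2 and 19.5% ± 0.5 for the control, its lowest share. AREG made up 19.9% ± 2.9 for kd.1, 8.93% ± 0.19 for kd.2 and 13.2% ± 2.6 for the control. Thus the line with the highest ligand sum had the lowest AREG share. TGFA, whose level was not called, held 18.2% ± 1.0 for kd.1, 12.3% ± 0.06 for kd.2 and 22.0% ± 0.2 for the control. The 3 receptors summed to 30.6 ± 2.1 FPKM for kd.1, 37.6 ± 3.2 for kd.2 and 30.9 ± 8.3 for the control, with the control libraries so far apart that they overlapped both knockdown lines.

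**Figure D3:**
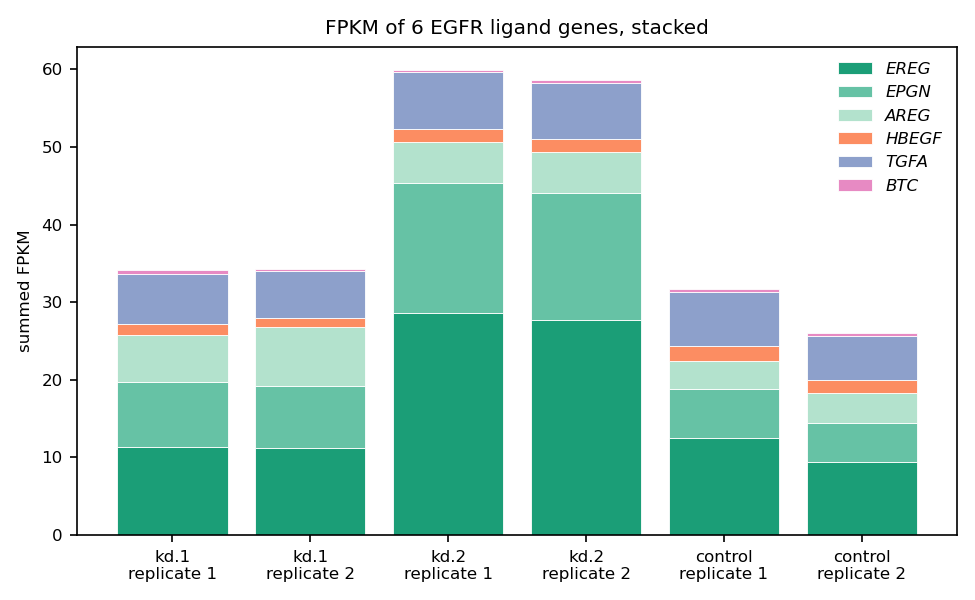
Summed FPKM of the 6 EGFR ligand genes (vertical axis) in each library (horizontal axis), stacked by gene. The kd.2 bars reach 59.88 and 58.58 FPKM, the kd.1 bars 34.14 and 34.29 and the control bars 31.72 and 26.07, and most of the added height in kd.2 is EREG and EPGN.

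The 3 ligands that were called lie next to each other. On chromosome 4 (GRCh38, GENCODE 29) EPGN spans 74308473 to 74315307, EREG 74365143 to 74388751 and AREG 74445134 to 74455009, all on the plus strand, within 146537 bases. BTC follows at 74744759 to 74794686 on the minus strand, with 289749 bases between it and AREG and 0 other genes of the table between any of the 4. HBEGF (chromosome 5, 140332843 to 140346631) and TGFA (chromosome 2, 70447280 to 70554193) lie elsewhere, as do EGFR (chromosome 7, 55019021 to 55211628), ERBB2 (chromosome 17, 39687914 to 39730426) and ERBB3 (chromosome 12, 56076799 to 56103505). EREG, EPGN and AREG together held 75.45% and 78.01% of the ligand sum in the kd.1 libraries, 84.5% and 84.3% in kd.2, and 70.8% and 70.4% in the control.

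The tested table genes on either side were CXCL3, CXCL2, MTHFD2L, RCHY1, THAP6 and G3BP2. Of these, 0 were called up in kd.1 and only G3BP2 in kd.2, against 15.8% and 15.7% of all tested genes. With so few genes, nothing is read from these counts. MTHFD2L, a mitochondrial folate enzyme gene beside EPGN, stood at 0.99 and 1.45 FPKM in kd.1, 1.23 and 1.64 in kd.2, and 2.10 and 1.81 in the control. It was lower in kd.1 by a log2 difference of -0.66 ± 0.20 (limma, adjusted p = 0.0372), a call lost without kd.1 replicate 1 (-0.40, adjusted p = 0.226), control replicate 1 (-0.56, 0.0912), kd.2 replicate 1 (-0.66, 0.0528) or kd.2 replicate 2 (-0.66, 0.0537). With no filter, a common FPKM sum or only the 2 groups in the fit its adjusted p values were 0.0756, 0.0704 and 0.0534. The chemokine genes CXCL2 and CXCL3 were not called, at -0.36 ± 0.15 and -0.44 ± 0.22 in kd.1 and -0.21 ± 0.15 and -0.38 ± 0.22 in kd.2. Beyond BTC, RCHY1 and THAP6 were not called either, and G3BP2, which encodes a stress granule protein, rose in kd.2 by 0.41 ± 0.11 (adjusted p = 0.0169; 0.104 and 0.0928 without kd.2 replicate 1 and 2). PPBP, CXCL5, PARM1 and CDKL2 did not reach the filter.

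**Figure D4:**
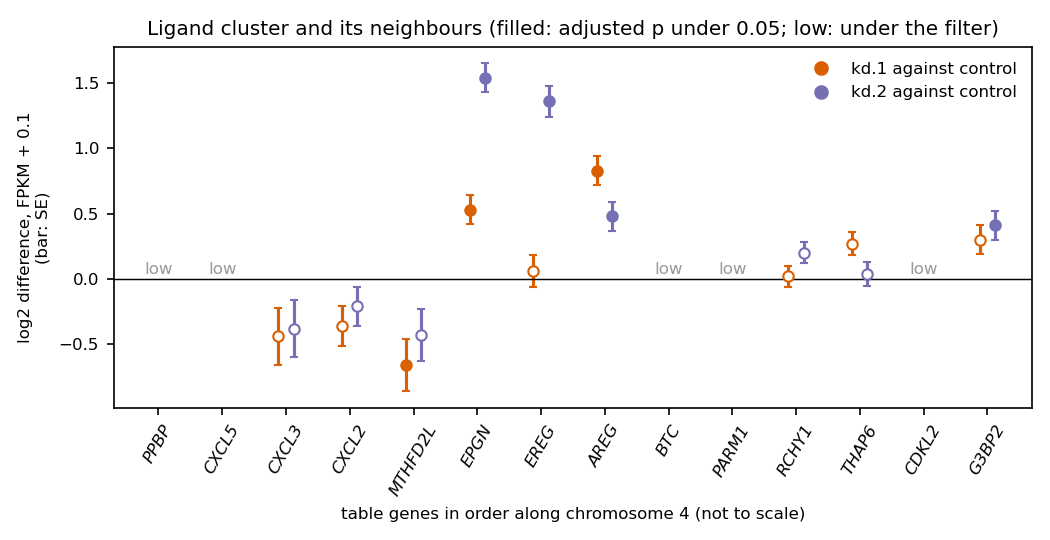
Log2 difference from control (vertical axis, log2 of FPKM + 0.1, with SE) for the table genes around the ligand cluster in their order along chromosome 4 (horizontal axis, evenly spaced), for kd.1 and kd.2; filled points were called and genes under the filter are marked low. EPGN, EREG and AREG stand above 0 in kd.2. In kd.1 EPGN and AREG do too, while EREG lies at 0.06 ± 0.12 and was not called. They lie between MTHFD2L, at -0.66 in kd.1 and -0.43 in kd.2, and BTC, which is under the filter.

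EPGN, EREG and AREG were all higher in kd.2, so the 250 bases before each start are given for them and for BTC (RefSeq, GRCh38.p14, each on its gene's own strand, 5′ to 3′); 8 of the 9 members had an entry. Capitals mark matches to any of 4 motifs, searched on both strands.
EPGN, chr4:74308220-74308469, plus strand: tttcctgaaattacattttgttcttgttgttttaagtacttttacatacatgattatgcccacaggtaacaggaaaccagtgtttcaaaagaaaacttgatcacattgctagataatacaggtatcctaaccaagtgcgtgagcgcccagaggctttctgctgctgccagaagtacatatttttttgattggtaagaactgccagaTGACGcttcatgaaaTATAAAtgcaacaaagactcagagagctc
EREG, chr4:74364895-74365144, plus strand: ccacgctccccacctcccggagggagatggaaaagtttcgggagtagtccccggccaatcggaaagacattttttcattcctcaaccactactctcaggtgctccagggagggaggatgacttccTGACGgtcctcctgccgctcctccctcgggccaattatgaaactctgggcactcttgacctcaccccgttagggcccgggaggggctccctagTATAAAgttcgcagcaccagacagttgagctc
AREG, chr4:74444886-74445135, plus strand: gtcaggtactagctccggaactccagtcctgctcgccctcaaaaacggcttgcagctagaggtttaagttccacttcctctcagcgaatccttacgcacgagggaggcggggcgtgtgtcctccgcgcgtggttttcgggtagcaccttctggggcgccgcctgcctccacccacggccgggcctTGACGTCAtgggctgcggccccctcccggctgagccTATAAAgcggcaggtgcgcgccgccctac
BTC, chr4:74794524-74794773, minus strand: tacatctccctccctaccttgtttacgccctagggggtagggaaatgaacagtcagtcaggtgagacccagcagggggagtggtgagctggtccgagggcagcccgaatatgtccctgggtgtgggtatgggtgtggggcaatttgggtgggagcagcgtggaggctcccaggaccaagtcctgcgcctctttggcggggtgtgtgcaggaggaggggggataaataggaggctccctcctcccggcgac

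The motifs searched were TATAAA (the TATA box), TGACG (part of the cAMP response element), TGANTCA (the AP-1 site) and GGGGAGGGG (a G-rich run of the kind that ZNF281 is known to bind). No 2 motifs overlapped here except for the 2 TGACG matches of AREG, 1 on each strand. TATAAA began 32 bases before the start in EREG, 29 in EPGN and 29 in AREG, and was found in none of the other 5 members with an entry; 10.7% of the 35116 promoters of the table hold it in this window. TGACG began 125 bases before the start in EREG, 44 in EPGN, 65 and 62 in AREG and 154 in TGFA, and 21.2% of all promoters hold it. TGANTCA was found in ERBB2, 222 bases before the start (6.6% of all promoters), and GGGGAGGGG in 0 of the 8 members (7.4% of all). EPGN had the lowest share of G and C in the window, 38.0%, against 58.0% in EREG, 65.2% in AREG and 62.0% in BTC. These matches describe letters and show no binding.

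Genes most like each member were named by the smallest root mean square difference of log2 levels over the 6 libraries, each gene centred on its own mean. For EREG these were PLSCR4 (0.113), DPYD (0.155) and FGF2 (0.169). PLSCR4 stood at 2.60 and 2.08 FPKM in kd.1, 6.68 and 6.17 in kd.2, and 2.44 and 1.99 in the control, and FGF2, another growth factor gene, at 11.54 and 10.00 in kd.1, 22.54 and 21.03 in kd.2, and 12.10 and 9.66 in the control. For EPGN they were TNKS2 (0.169), EREG itself (0.196) and ZNF267 (0.198), so EREG was the second nearest of all tested genes. EPGN was not among the 3 genes nearest to EREG. Both were picked with earlier results of these libraries in view, so nothing is read from their closeness. AREG was nearest to HYAL1 (0.072), CHAC2 (0.072) and CTH (0.087), and its difference to EREG was 0.700 and to EPGN 0.610. EGFR was nearest to FAT1 (0.072), REL (0.085) and GPR157 (0.104), each of which also had control libraries far apart, with FAT1 at 4.02 and 2.43 FPKM there. HBEGF was nearest to KCTD11, ZNF260 and TMEM167B, TGFA to NBN, HS2ST1 and SF3A1, ERBB2 to HDAC7, HDAC1 and SCMH1, and ERBB3 to KCTD21, DIS3L2 and ZMYM2.

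The rest of the family was described next. These genes were also listed with earlier results of these data known, so their adjusted p values are a description and not an independent test. NRG1, a neuregulin that binds ERBB3 and ERBB4, stood at 4.11 and 3.18 FPKM in kd.1, 6.38 and 5.73 in kd.2, and 6.96 and 7.11 in the control. NRG1 fell in kd.1 by a log2 difference of -0.94 ± 0.12 (limma, adjusted p = 0.0011) and was at -0.22 ± 0.12 in kd.2 (adjusted p = 0.193). NRG4, a ligand of ERBB4, moved the other way, with 23.89 and 22.85 FPKM in kd.1, 15.29 and 15.52 in kd.2, and 16.99 and 16.56 in the control. It rose in kd.1 by 0.48 ± 0.06 (adjusted p = 0.00123) and was at -0.12 ± 0.06 in kd.2 (adjusted p = 0.159). The lines differed from each other in both genes (kd.2 against kd.1, 0.73 ± 0.12 for NRG1 and -0.60 ± 0.06 for NRG4, adjusted p = 0.00281 and 0.000298). NRG4 stood above EREG, the highest of the 6 ligands, in all kd.1 and control libraries and below it in those of kd.2, while EGF and ERBB4, the receptor that NRG4 binds, stayed at or below 0.04 and 0.08 FPKM in every library. NRG2 was at most 0.08 and NRG3 at most 0.03 FPKM.

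Genes that release the ligands, carry the receptors' signal, switch the receptors off or respond to ERK were described from lists made from textbook roles, 81 genes with the rest of the family, of which 69 were tested. The lists were made with earlier results of these data known, and most genes named from them are those with the smallest p. Their counts and adjusted p values are therefore also a description and not an independent test. In kd.1 10 of the 69 were called up and 13 down, 14.5% and 18.8% of them, against 15.8% up and 13.4% down of all tested genes. The median log2 difference in kd.1 was -0.05 against 0.02 over all tested genes. In kd.2 19 were called up and 3 down, 27.5% and 4.35%, against 15.7% up and 22.2% down of all tested genes, with a median of 0.14 against -0.03. The share called up in kd.1 was thus near that of all genes. The kd.1 count of 23 calls was 12 and 13 without kd.1 replicate 1 and 2. The kd.2 count of 22 was 9 and 8 without kd.2 replicate 1 and 2 and 39 without control replicate 1.

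Of the ligand sheddases and their partners, 9 of 12 were tested. ADAM10, a sheddase of EGF and BTC, stood at 22.75 and 23.86 FPKM in kd.1, 30.03 and 30.36 in kd.2, and 25.01 and 19.80 in the control, and rose in kd.2 by 0.44 ± 0.10 (limma, adjusted p = 0.0112). ADAM9 rose in kd.2 by 0.47 ± 0.13 (adjusted p = 0.0239), and so did RHBDF2, a partner of ADAM17, by 0.39 ± 0.10 (adjusted p = 0.0141). FRMD8, which stabilises that complex, rose in both lines, by 0.33 ± 0.08 in kd.1 and 0.43 ± 0.08 in kd.2 (adjusted p values 0.0141 and 0.00385). TIMP3, an inhibitor of ADAM17, split the lines: it fell in kd.1 by 0.81 ± 0.06 on the log2 scale and rose in kd.2 by 0.25 ± 0.06 (adjusted p = 6.6e-05 and 0.0116), at 30.35 and 30.92 FPKM in kd.1, 64.25 and 63.68 in kd.2, and 54.56 and 53.23 in the control. The gene of the list that fell in kd.2, named after its values were seen, was the metalloproteinase gene ADAM15, at 93.40 and 99.62 FPKM in kd.1, 76.33 and 82.68 in kd.2, and 94.29 and 89.55 in the control (log2 difference in kd.2 -0.21 ± 0.07, adjusted p = 0.0417). It was also lower in kd.2 than in kd.1 (-0.28 ± 0.07, adjusted p = 0.0153). In all 1 rose and 1 fell in kd.1, 11.1% each and near the 15.8% and 13.4% of all tested genes. In kd.2 5 rose and 1 fell, 55.6% and 11.1% against 15.7% and 22.2%. The medians were 0.07 in kd.1 and 0.25 in kd.2, and with a common FPKM sum the kd.2 split was 6 up and 0 down.

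Those sheddase counts were sensitive to single libraries. In kd.2, the list had 6 calls and kept 1, FRMD8, without kd.2 replicate 1 or 2: the adjusted p values were then 0.0764 and 0.0791 for ADAM10, 0.122 and 0.114 for ADAM9, 0.0795 and 0.105 for RHBDF2, and 0.105 and 0.0895 for TIMP3. ADAM9 also lost its call with no filter (0.0531). No gene of the list was called down in kd.2, so ADAM15 had lost its call, without any 1 of the 4 knockdown libraries, with no filter, without trend and robust moderation, under the replicate block and with only the 2 groups in the fit. In kd.1 the count of 2 was 1 without kd.1 replicate 1 or 2, where FRMD8 had adjusted p values of 0.0504 and 0.138, and 4 without control replicate 1.

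Of the receptor adaptors and relay genes, 23 of 24 were tested. In kd.1 5 rose and 4 fell, 21.7% and 17.4% against 15.8% and 13.4% of all tested genes, and in kd.2 7 rose and 1 fell, 30.4% and 4.35% against 15.7% and 22.2%. The medians were -0.01 in kd.1 and 0.16 in kd.2. Besides SHC1, given below, the genes that fell in kd.1 were HRAS, MAP2K2 and PIK3R2, named after their values were seen. They fell by 0.32 ± 0.08, 0.27 ± 0.06 and 0.23 ± 0.07 (limma, adjusted p = 0.0199, 0.0147 and 0.0336), and none of them was called in kd.2. The kd.1 calls of HRAS, MAP2K2 and PIK3R2 were each lost without kd.1 replicate 1 or 2. MAP2K1, the kinase MEK1 that activates ERK, stood at 71.69 and 68.71 FPKM in kd.1, 79.09 and 77.24 in kd.2, and 51.00 and 50.81 in the control, and rose by 0.46 ± 0.06 in kd.1 and 0.62 ± 0.06 in kd.2 (limma, adjusted p values 0.000918 and 0.000258). NRAS, a RAS GTPase, rose by 0.59 ± 0.08 and 0.47 ± 0.08 (adjusted p = 0.00108 and 0.00264). SOS1, the exchange factor that loads RAS, rose by 0.42 ± 0.10 and 0.52 ± 0.10 (adjusted p = 0.0125 and 0.00435); the kd.1 call was lost without kd.1 replicate 1 (0.0699) or 2 (0.085) and the kd.2 call without kd.2 replicate 2 (0.0551). The adaptor gene SHC1 fell in kd.1 by 0.43 ± 0.06 (adjusted p = 0.00138) and the kinase gene ARAF in kd.2 by 0.34 ± 0.07 (adjusted p = 0.00596; 0.0582 and 0.063 without kd.2 replicate 1 and 2). PIK3CB, a catalytic PI3K subunit, rose in kd.1 by 0.41 ± 0.09 (adjusted p = 0.0095; 0.0692 without kd.1 replicate 1). The count of 9 in kd.1 was 3 and 4 without kd.1 replicate 1 and 2, and that of 8 in kd.2 was 3 and 2 without kd.2 replicate 1 and 2 and 17 without control replicate 1. It was 5 with no filter and 5 without trend and robust moderation.

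Of the genes that inhibit or remove the receptors, 16 of 18 were tested. In kd.1 2 rose and 0 fell and in kd.2 2 rose and 1 fell; the 12.5% that rose in each line lay near the 15.8% and 15.7% of all tested genes. The share that fell in kd.2 was 6.25% against 22.2%, and the medians were 0.05 in kd.1 and 0.11 in kd.2. RNF41, the ubiquitin ligase that limits ERBB3, stood at 8.13 and 7.94 FPKM in kd.1, 5.89 and 5.91 in kd.2, and 7.65 and 7.35 in the control. It fell in kd.2 by 0.34 ± 0.08 on the log2 scale (limma, adjusted p = 0.0099; 0.0804 and 0.0736 without kd.2 replicate 1 and 2, 0.0937 with a common FPKM sum). ERRFI1, a feedback inhibitor of the EGFR kinase, was at 6.85 and 6.24 FPKM in kd.1, 10.33 and 9.05 in kd.2, and 8.48 and 6.86 in the control. ERRFI1 and the ubiquitin ligase gene CBL passed narrowly in kd.2 (0.34 ± 0.12 and 0.37 ± 0.12, adjusted p = 0.0492 and 0.0404), as did USP8 and SOCS4 in kd.1 (0.26 ± 0.07 and 0.32 ± 0.09, adjusted p = 0.0313 and 0.0338). Leaving out single libraries gave adjusted p values of up to 0.287 for ERRFI1 (without kd.2 replicate 1), 0.232 for CBL (kd.2 replicate 2), 0.163 for USP8 (kd.1 replicate 2) and 0.215 for SOCS4 (kd.1 replicate 2), and all 4 lost their calls with no filter. HGS, CBLB and PTPRJ were not called against control. Without either library of the knockdown line in question the list had 0 calls in each comparison; without either library of the other line it had 0 in kd.1 and 1 in kd.2. With a common FPKM sum the kd.2 split was 3 up and 0 down, and with a common median the kd.1 split was 2 up and 1 down. Without control replicate 1 it had 6 in kd.1 and 8 in kd.2, and without control replicate 2 it had 5 in kd.1.

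The ERK feedback and early target genes had the highest share of calls between the lines among the 4 pathway lists. CCND1, cyclin D1, stood at 10.66 and 10.69 FPKM in kd.1, 28.48 and 30.34 in kd.2, and 21.98 and 19.99 in the control. It fell in kd.1 by 0.97 ± 0.07 on the log2 scale and rose in kd.2 by 0.49 ± 0.07 (limma, adjusted p = 8.18e-05 and 0.00189). FOS and SPRED1, an early transcription factor gene and a brake on RAS signalling, fell in kd.1 by 0.70 ± 0.09 and 0.83 ± 0.12 (adjusted p = 0.00119 and 0.00159). FOSL1, a FOS relative known as a lasting readout of ERK, stood at 12.11 and 11.36 FPKM in kd.1, 20.69 and 20.10 in kd.2, and 13.17 and 12.97 in the control, and rose in kd.2 by 0.64 ± 0.07 (adjusted p = 0.000451). ETV5 and MYC also rose in kd.2, by 0.58 ± 0.09 and 0.50 ± 0.07 (adjusted p = 0.00209 and 0.00108), while DUSP1, a phosphatase of MAP kinases, rose in kd.1 by 0.51 ± 0.09 (adjusted p = 0.00351).

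Of 19 tested members of that list, 1 rose and 7 fell in kd.1, 5.26% and 36.8% against 15.8% and 13.4% of all tested genes. In kd.2 5 rose and 0 fell, 26.3% up against 15.7% up and 22.2% down of all tested genes. The medians were -0.15 in kd.1 and 0.10 in kd.2, against 0.02 and -0.03 over all tested genes. Between the lines, kd.2 against kd.1, 11 were higher and 2 lower, 57.9% and 10.5% against 11.9% and 20.3% of all tested genes, with a median of 0.48 against -0.05; this between-line count was chosen after the values were seen. The largest of these differences among the genes named were 1.45 ± 0.07 for CCND1, 0.92 ± 0.12 for SPRED1, 0.79 ± 0.07 for FOSL1 and 0.71 ± 0.09 for ETV5 (limma, adjusted p = 8.3e-06, 0.000742, 9.66e-05 and 0.000642). The line with the higher EREG and EPGN levels was thus also the one with the higher levels of these genes, in 2 lines that each carry 1 shRNA. AREG (-0.35 ± 0.11) went the other way, as did DUSP1 (-0.51 ± 0.09) and, named after its values were seen, ETV4 (-0.35 ± 0.10). Against control, the kd.1 ligand sum was 1.18 times as high, with EPGN and AREG called up, while 7 genes of this list fell and 1 rose. Whether ligand levels and these genes are linked was not tested. KRT8 and KRT18 were also higher in kd.2 than in kd.1 and HNF4A and DCN lower, and whether other differences between the lines play a part was not tested.

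**Figure D5:**
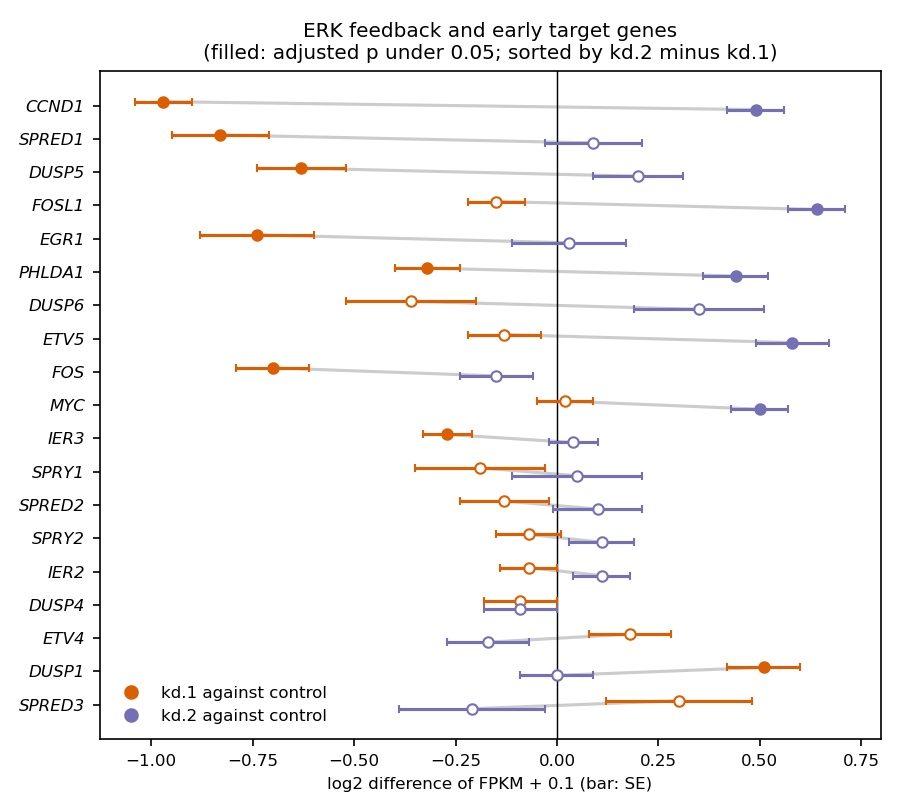
Log2 difference from control (horizontal axis, log2 of FPKM + 0.1, with SE) of 19 ERK feedback and early target genes in kd.1 and kd.2, sorted by the difference of kd.2 from kd.1; filled points were called. CCND1 lies at -0.97 in kd.1 and 0.49 in kd.2, and near the other end DUSP1 lies at 0.51 in kd.1 and 0.00 in kd.2.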

How the data were processed

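Total RNA of 6 HLE libraries was sequenced. Per the submitters' processing notes the tools included RSEM 1.2.12, HISAT2 2.0.4 and Bowtie2 2.2.5, in unstated roles, and the builds GRCh38.p11 and hg38. The authors deposited 1 table of 21372 features, taken here as FPKM: the values have 2 decimals and column sums that differ, and no label states the unit. Rounding to 2 decimals left no usable read steps, so depth could not be recovered and intervals for counting error are omitted. The 1869 features named BGI_novel were left out, leaving 19503 named genes. The filter kept 10851 genes that reached 1 FPKM in 2 or more libraries. Their log2(FPKM + 0.1) values went into a limma model (version 3.58.1, R 4.3.3) of the 3 group means, using trend = TRUE and robust = TRUE, which left 3 residual degrees of freedom (8.64 in the median once moderated), and p-values were adjusted over all tested genes. SDs are over 2 libraries. Groups of 2 are too small for exact permutation of a single value to pass 0.05. The members and lists were chosen with earlier results of these data known. Besides the members, the text names the rest of the family, ZNF281, up to 4 genes per list and line with the smallest p, the 3 genes nearest in pattern to each member, and the table genes around the cluster. Further list genes were named after their values were seen, as stated where they appear. Alternatives were another pseudocount, filter, moderation, scaling or set of libraries, a replicate block and leaving out each library.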

Additional observations from a re-analysis of the deposited data

Results flagged for a closer look

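For 18 genes the difference between the lines itself passed the threshold (limma, adjusted over all tested genes). They were counted among the members, the rest of the family and the list genes named by smallest p. Genes nearest in pattern were not counted. Values are log2 differences of kd.2 against kd.1. ADAM15 (-0.28) and ETV4 (-0.35), named after their values were seen, passed it as well and are not in the count. All are a description only, since members and lists were chosen with earlier results of these data known. For members they were 1.31 for EREG, 1.02 for EPGN and -0.35 for AREG. In the rest of the family they were 0.73 for NRG1 and -0.60 for NRG4. Among the ERK feedback and early target genes they were 1.45 for CCND1, 0.92 for SPRED1, 0.79 for FOSL1, 0.71 for ETV5, 0.55 for FOS, 0.48 for MYC and -0.51 for DUSP1. Among sheddase genes TIMP3 stood at 1.06 and ADAM10 at 0.37. The adaptor gene SHC1 stood at 0.32, and the genes acting on the receptors at 0.56 for ERRFI1, 0.41 for PTPRJ and -0.44 for RNF41. The calls of ADAM10, ADAM15, ERRFI1, ETV4, PTPRJ, SHC1 and AREG were lost when single libraries were left out. Groups of 2 libraries are too small for a test of single outlying samples.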

How the results depend on the processing

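With the replicate number as a block, the counts of called members were 3 in each of the 3 comparisons and those of list genes 22 in kd.1 and 20 in kd.2, so these counts moved by less than 1.5 times; among the separate lists the inhibitor count in kd.1 went to 1 and the relay count between the lines to 3, and the CBL call in kd.2 (adjusted p = 0.0634) and the SOCS4 call in kd.1 (0.0509) were lost under it. The labels give no shared culture or day for a number. The differences between replicates 1 and 2 correlated at 0.183 for kd.1 and kd.2, 0.022 for kd.1 and control, and -0.0874 for kd.2 and control. Whether samples of the same number share a culture or day cannot be told from these values. Leaving out 1 library at a time gave between 1 and 5 called members in kd.1, 2 and 5 in kd.2, and 2 and 5 between the lines, and between 12 and 33 list genes in kd.1 and 8 and 39 in kd.2. With only the 2 groups compared in the fit, 5 members were called between the lines, TGFA and EGFR being added. Members that changed sign were not called in the fit as reported. EREG in kd.1 stood between -0.15 and 0.26 when 1 library was left out, EGFR in kd.1 between -0.32 and 0.60, HBEGF in kd.2 between -0.14 and 0.04, TGFA in kd.1 between -0.17 and 0.13 and ERBB3 in kd.2 between -0.07 and 0.10. The sign change came without control replicate 2 for EREG (-0.15) and EGFR (-0.32), without control replicate 1 for HBEGF (0.04), without kd.1 replicate 2 (0.03) or control replicate 1 (0.13) for TGFA, and without kd.2 replicate 2 (-0.07) or control replicate 2 (-0.01) for ERBB3. With a common FPKM sum HBEGF in kd.2 stood at 0.04 and TGFA in kd.1 at 0.06. The common FPKM sum moved the median log2 difference of all genes to 0.097 in kd.1 and 0.065 in kd.2. The cause of these changes was not tested. With 2 libraries a group and unknown depth, small differences of low genes such as HBEGF and BTC cannot be resolved.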
